A study of Sus scrofa with 36 samples.

Results

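The comparison set the livers of 6 F1 pigs kept at 24 °C against their mid-parent value, which is the mean of the group mean of 6 Large White (LW) and the group mean of 6 Creole (CR) pigs kept at that temperature. These 18 animals, of 36 in the series, were chosen from the breed and temperature in the sample labels and not from any measured value. Large White is a European breed selected for growth and Creole is a breed native to the Caribbean. The methods describe the F1 pigs as Large White by Creole crosses. All animals were castrated males. They entered a climatic room at 11 weeks of age, adapted to it for 10 days and were killed on 2 days near the end of a further 9 days at 24 °C, called thermoneutrality (TN). The other 18 animals, 6 of each breed, were heat-stressed (HS), at 30 °C by their labels and at 32 °C by the growth protocol. No HS animal enters the TN departure itself, so a TN pattern can be looked at again in these separate animals. By the litter and pen arrangement of the methods, they were littermates of the TN animals and add no new litters. Per the methods, the animals of a breed came from 3 blocks of 4 littermates and shared pens only with their own breed, so breed and pen cannot be told apart. The labels give no litter, pen or slaughter day and do not say which breed was the mother of the cross. By the methods a pen held 3 pigs of different blocks, and 2 of the 4 pens of a breed were killed at 24 °C. Every TN animal therefore had a littermate in its own group of 6, which came from 3 litters. The p-values treat the 6 animals as independent and measure the spread between these animals, not between litters.

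A gene is expressed additively in a cross when the level of the cross lies midway between those of its parents. It is called dominant when the cross takes the level of one parent and over-dominant when the cross lies beyond both. Autosomal genes of an F1 animal come in equal measure from both parents. A male has its X chromosome from the mother alone, and the mitochondrial genome, which encodes subunits of the respiratory chain, is likewise passed on by the mother.

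RNA was hybridised to 1-colour Agilent pig arrays of 60-base probes. On the 18 TN arrays the median signal lay between 70.0 and 91.5 intensity units over a background of 19.0 to 24.0, 39644 to 43123 spots were well above background and 0 were saturated. Analysis used log2 median signals, quantile normalized between arrays, of the 44796 probes detected over background by 6 or more of the 36 arrays. Of these, 23892 carried a gene name, and for 11220 genes the brightest probe stood for the gene. Hepatocyte markers (ALB, TTR, APOA1, SERPINA1, TF and FGB, 6 of 7 measured) had mean log2 levels of 18.06 in LW TN, 17.99 in CR TN and 18.00 in F1 TN. LW TN replicates 1 and 6 stood apart on the first principal component of all arrays, at -4.83 and -3.04, whereas the other 4 LW TN animals lay between -44.2 and -35.0. F1 TN replicate 3 correlated least with the other F1 TN animals, with a mean r of 0.986. Results that rest on these 3 animals are given with and without them.

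At 24 °C few F1 liver probes were called off the mid-parent value. With limma and Benjamini-Hochberg adjustment over all kept probes, 8 of 44796 probes (0.0179%) were off it, 2 above (0.00446%) and 6 below (0.0134%), and the departures of the 8 were between 0.35 and 0.93 on the log2 scale. Without adjustment, 2050 probes (4.58%) lay above and 2128 (4.75%) below at a p under 0.05. Together these were 9.33% of probes, more than the share of 0.05 that this threshold gives when nothing departs and animals are independent. Littermates within a group are not independent, so the excess cannot be read as departures of the cross alone. The median departure was -0.0021 and the median absolute departure 0.079. The standard error of a departure had a median of 0.094, and its 95% interval lay within 0.5 of mid-parent at 87.2% of probes and within 1 at 98.3%. Called parental differences had a median of 0.50, so an interval within 0.5 of mid-parent can hold a parental level. The count of 8 moved with single animals, from 0 in 7 of the 18 fits that left out a TN animal to 24 without CR TN replicate 6. Every one of the 8 calls was lost in at least 17 of 35 to 37 alternative fits. Without LW TN replicates 1 and 6, 12 probes were called, 4 of them among the 8. With F1 TN replicate 3 left out as well, 5 were called, 2 of them among the 8.

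The F1 mean lay beyond both parental means at 7 of the 8 probes, but F1 was called from both parents at 2, in both cases below them. The first is LSM7, a subunit of the LSm ring that binds U6 small nuclear RNA in splicing and takes part in mRNA decay (chromosome 2, 76247010 to 76251824, Sscrofa11.1). Its log2 signal was 12.73, 12.90 and 12.95 (lowest, median, highest) in LW TN, 12.75, 12.90 and 13.01 in CR TN, and 12.29, 12.54 and 12.75 in F1 TN. F1 replicates 1, 5 and 6 lay at 12.69 to 12.75, close to the lowest parental animals. Replicates 2, 3 and 4 lay at 12.29 to 12.38, well under all 12 parents, and no F1 animal lay near the F1 median. The departure was -0.35 ± 0.06 (SE, limma adjusted p = 0.0442), the adjusted p was 0.0213 against LW and 0.0313 against CR, and all 6 F1 animals lay below mid-parent. In HS animals it was -0.16 (unadjusted p = 0.0167). The second, probe A_72_P050011, has no gene name in the file. It lay at 8.79, 9.20 and 9.57 in LW TN, 9.01, 9.25 and 9.52 in CR TN and 8.56, 8.68 and 8.83 in F1 TN, so that F1 overlapped LW at 1 animal and CR at none. Its departure was -0.54 ± 0.10 (SE, adjusted p = 0.0442) in TN and -0.53 in HS (adjusted p = 0.0359 over all probes), of like size in littermates of the TN animals.

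In 3 further probes the parents differed and F1 was called from CR only. Probe A_72_P097651, which the file likens to a coiled-coil protein (CCDC17) of the dog, had log2 signals of 6.93, 7.44 and 7.73 in LW TN, 5.22, 5.28 and 5.53 in CR TN and 6.79, 7.20 and 7.62 in F1 TN. In F1, 3 of 6 animals were in the LW range and the other 3 just under it at 6.79 to 6.87, and none was near CR. Only 2 of 6 CR arrays were well above background, so differences from CR and the departure are partly set by the limit of detection. The departure was 0.86 ± 0.14 (SE, adjusted p = 0.0317) and 0.90 in HS (adjusted p = 0.00281). F1 differed from CR by 1.88 (adjusted p = 1.44e-08) and from LW by -0.16 (adjusted p = 0.66). Probe A_72_P038316 had the same shape in the other direction, with F1 at 5.07, 5.26 and 5.40 beside LW at 5.17, 5.31 and 5.75 and under CR at 5.84, 5.93 and 6.12. Its departure was -0.41 (adjusted p = 0.0499), with 2 of 6 LW and 2 of 6 F1 arrays above background, so part of that level is at the limit of detection. Probe A_72_P135376, which the file likens to the centrosomal protein CEP170, departed by -0.54 (adjusted p = 0.0442) and lay at 6.68, 6.85 and 7.21 in F1 against 7.41, 7.63 and 7.76 in CR and 6.90, 7.24 and 7.50 in LW, reaching into the LW range from below.

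The last 3 probes differed from LW and not from CR, although the parents themselves were not called different. TMSB4X encodes thymosin beta 4, a small protein that binds actin monomers (chromosome X, 9649516 to 9651662). It had 15.53, 15.86 and 16.02 in LW TN, 15.50, 15.66 and 15.84 in CR TN and 15.10, 15.37 and 15.55 in F1 TN, and only the top F1 animal came level with the lowest parents. The departure was -0.41 ± 0.08 (SE, adjusted p = 0.0442). All 4 kept TMSB4X probes departed by -0.43 to -0.41, each with an unadjusted p under 0.05, and in HS the brightest was at -0.23 (unadjusted p = 0.00538). One probe of AKR1C1, an aldo-keto reductase of steroid metabolism (chromosome 10, 65580297 to 65594998), had 11.23, 11.68 and 11.96 in LW, 11.11, 11.26 and 11.42 in CR and 10.56, 10.90 and 11.31 in F1, a departure of -0.56 ± 0.11 (SE, adjusted p = 0.0499). The 8 kept AKR1C1 probes ran from -0.56 to 0.94 and 4 shared the direction, and the AKR1C genes are close in sequence, so the gene as a whole is uncertain. Probe A_72_P086596, of unknown gene, departed by 0.93 (adjusted p = 0.0442). Its F1 animals fell apart, with replicates 2, 3 and 4 between 8.38 and 8.76 and replicates 1, 5 and 6 between 7.07 and 7.41. LW lay at 6.49 to 7.18 and CR at 6.98 to 7.42. The same 2 sets of F1 animals lay apart at LSM7 and A_72_P097651, so the 6 F1 values are not like 6 independent ones there. Replicates 2, 3 and 4 were on slides 3 and 4 and the other F1 animals on slides 2 and 5. The part of slide, pen or litter in this split was not tested. In HS its departure was 0.19 (unadjusted p = 0.276). All 8 probes had the direction given here in 6 of 6 F1 animals and within each of the 4 slides that held all 3 breeds at 24 °C. The nearest probes outside the threshold were COL6A4P2 at 0.50 (adjusted p = 0.0527) and an unnamed probe at -0.58 (adjusted p = 0.0671).

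**Figure D1:**
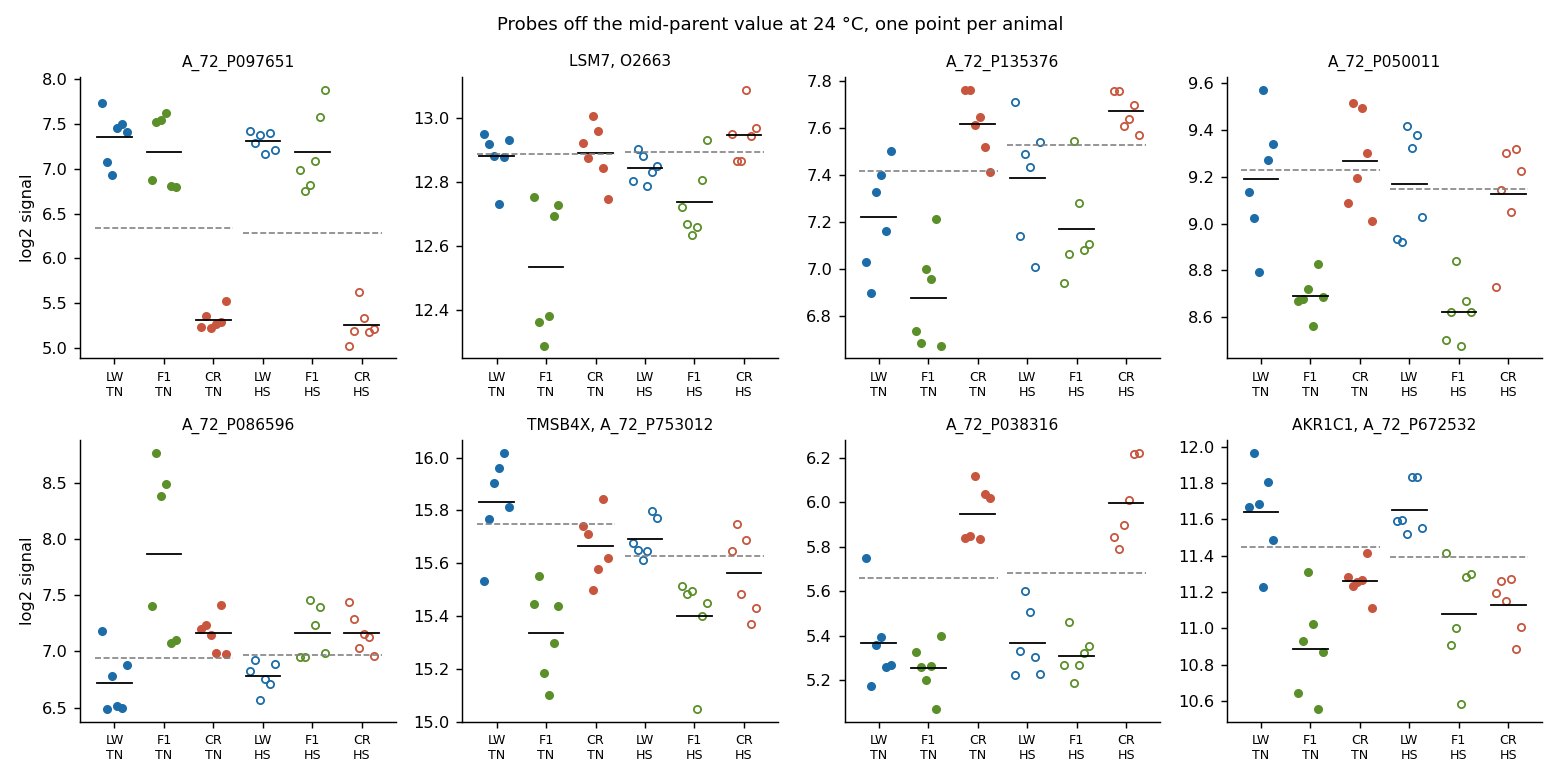
Log2 signal of the 8 probes off the mid-parent value at 24 °C, with 1 point for each of 36 animals (filled TN, open HS), a black line at each group mean and a dashed line at the mid-parent value of each temperature. All F1 TN points lie on one side of the TN dashed line in every panel, and in all panels but that of A_72_P097651 the F1 TN mean lies beyond both TN parental means.

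F1 animals were also set against the parental animals one by one, as a description of values. All 6 F1 animals lay above all 12 parents at 1 probe (0.00223% of probes) and below all 12 at 9 (0.0201%). None of the 10 was off the mid-parent value after adjustment. The probe above was of CCPG1, a receptor in endoplasmic reticulum turnover, at 9.68 to 9.84 in F1 against 9.34 to 9.65 in both parents. Its departure was 0.23 in TN and -0.06 in HS, and 1 of 6 CCPG1 probes had an unadjusted p under 0.05. Among those below was MDH2, the mitochondrial malate dehydrogenase of the citric acid cycle (chromosome 3, 10120121 to 10132705). MDH2 had 12.85, 13.01 and 13.09 in LW TN, 12.92, 13.02 and 13.27 in CR TN and 12.34, 12.70 and 12.84 in F1 TN, and 4 of 4 kept probes departed by -0.38 to -0.23, each with an unadjusted p under 0.05 (adjusted p of the probe = 0.119). In HS its departure was -0.41. TMEM70, which assists assembly of ATP synthase, departed by -0.45 with 6 of 6 probes on the same side (adjusted p = 0.119) and by -0.13 in HS, and SNRPC, a protein of the U1 spliceosomal particle, by -0.25 with 5 of 5 (adjusted p = 0.151). MRFAP1, NMB and TDP1 departed by -0.35, -0.23 and -0.19, and the last 3 have no gene name. These genes were named after their values were seen.

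Among representative probes of named genes, 421 of 11220 (3.75%) lay above and 673 (6%) below mid-parent at an unadjusted p under 0.05. Only LSM7 and TMSB4X passed adjustment, so the other genes named here by smallest p are given as values and not as changes. Among those above, COL6A4P2 (a collagen VI pseudogene in humans) had 11.28, 11.39 and 11.88 in F1 TN against 10.53, 10.84 and 11.17 in LW and 10.93, 11.14 and 11.29 in CR, and it was called from LW (adjusted p = 0.00596). PPARGC1A, the coactivator PGC-1alpha that drives fasting metabolism and mitochondrial biogenesis in liver (chromosome 8, 17841844 to 18527953), departed by 0.61 (adjusted p = 0.163), with F1 at 11.61, 11.84 and 12.97 against 10.87 to 11.78 in LW and 11.21 to 12.06 in CR. Its 4 probes gave 0.36 to 0.61, and in HS the departure was -0.03. ENTPD4, a nucleotide-cleaving enzyme of the Golgi, departed by 0.33 with 3 of 3 probes on the same side, and its F1 range of 8.64 to 8.95 just met the highest CR animal at 8.70. PAICS, an enzyme of purine synthesis, departed by 0.36 with F1 at 10.25 to 10.72 against 9.95 to 10.21 in LW and 9.99 to 10.44 in CR. LPP, a protein of cell adhesion sites, departed by 0.65. EPB42 of the red cell membrane departed by 0.51, with its other probe at -0.14. MYOCD, a coactivator of smooth muscle genes, departed by 0.90 with 4 probes from 0.04 to 0.90. DHX33 (0.32), MEIG1 (0.41) and MPP4 (0.37) were dim probes, and for DHX33 and MPP4 parts of each parental group were not above background.

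Among those below, ADA2, an adenosine deaminase made by myeloid cells, departed by -0.60 (adjusted p = 0.119), with F1 at 9.94, 10.08 and 10.46 against 10.52 to 11.31 in LW and 10.21 to 10.92 in CR. No F1 animal reached the LW range. MLKL, the executor of necroptosis, departed by -0.64 with F1 at 5.27, 5.49 and 6.32 and 4 of 6 F1 arrays above background. VPS18, a subunit of complexes that tether membranes to the lysosome, departed by -0.37 and its 4 probes ran from -0.39 to 0.06. DTD1, which clears misloaded transfer RNA, departed by -0.41 with all 5 probes between -0.43 and -0.27. RPS26, a protein of the small ribosomal subunit, departed by -0.22 with F1 at 15.96 to 16.25, which did not reach the lowest LW animal at 16.30 and met CR at its lowest, 16.24. In HS RPS26 departed by -0.20. TTF2 (-1.15), MYO9A (-0.42), ST5 (-0.32) and C1ORF151 (-0.35) made up the rest, with 1 of 4 TTF2 probes at an unadjusted p under 0.05. The TTF2 value was drawn out by F1 TN replicate 2 at 5.22, without which it was -0.78. DOK2, an adaptor protein of blood cells, departed by -0.62 in TN (0 of 6 F1 animals above mid-parent) and 0.36 in HS (6 of 6 above). Another 6 genes were named from earlier results over both temperatures, so a shared sign follows from their choice. PLEKHD1 was at 0.89, TAOK3 at 0.62, ND6 at 0.65, S100A2 at -1.01, SLA-6 at -0.56 and PTPMT1 at -0.61 in TN, and 0.86, 0.72, 0.57, -1.35, -0.69 and -0.63 in HS. None passed adjustment in TN. Both sets of values are part of those earlier results.

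The parents themselves differed at 1982 probes (4.42%) at 24 °C, 909 higher and 1073 lower in CR, by a median of 0.50 on the log2 scale. F1 differed from LW at 312 probes (0.696%), 144 higher and 168 lower, and from CR at 34 (0.0759%), 13 higher and 21 lower. Among the 1982, the F1 mean lay between the parental means at 1788 (90.2%), beyond CR at 140 and beyond LW at 54. The 95% interval of the departure held 0 at 1689 (85.2%), lay off it toward CR at 210 and toward LW at 83. Additive expression could be separated from both parental levels at few of them. At 142 of the 1689 probes the intervals of F1 minus each parent both excluded 0. At 948 the interval of F1 minus CR alone held 0, at 438 that of F1 minus LW alone and at 161 both. Most parental differences were thus too small, with 6 animals a group, for midway and one-parent levels to be told apart.

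On average the F1 level lay somewhat nearer to CR. The median position of F1 on a scale with LW at 0 and CR at 1 was 0.62 over the 1982 probes (quartiles 0.42 and 0.80), and 67.1% of departures pointed toward CR, by a median of 0.059. The choice of these probes in TN leaves the departure free, since both contrasts are orthogonal with equal groups. With parent-differing probes chosen in HS animals alone, 7457 in number, the parental difference had the same sign in TN at 96.0%, the F1 mean lay between the parents at 59.7% (41.1% of all kept probes) and the median departure was 0.073 toward CR, at 72.7% of probes. Of these, 3 were called off mid-parent, and 845 (11.3%) had an unadjusted p under 0.05, against 8.93% of the other probes. Without LW TN replicates 1 and 6 the median departure over called probes was larger, at 0.13. A rise follows from that choice, since these LW animals lay toward CR and leaving them out moves mid-parent away from CR. Without slide 3, which holds none of the animals that stand apart, the median departure was -0.0066, the opposite direction.

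Seen by animal, F1 pigs spread over most of the way between the parents. Over the HS-chosen probes, the position of each animal between the LW mean (0) and the CR mean (1) was 0.990, 0.566, 0.340, 0.543, 0.654 and 0.861 for F1 TN replicates 1 to 6, a mean of 0.659 ± 0.234 (SD, n = 6). F1 replicate 1 lay at the CR mean and replicate 3 nearer to LW, with no gap between animals. Creole animals lay between 0.769 and 1.29. Large White animals lay between -0.334 and -0.174, except replicates 1 and 6, which lay at 0.462 and 0.459, inside the F1 range. When the LW mean without these 2 animals was set to 0, which makes a different scale, the F1 mean was 0.723 ± 0.190 (SD, n = 6). On the first scale the F1 mean without replicate 3 was 0.723, and the 2 values are not comparable. The median departure toward CR ran from -0.043 to 0.17 over the 6 F1 animals, with a mean of 0.062 ± 0.071 (SD).

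**Figure D2:**
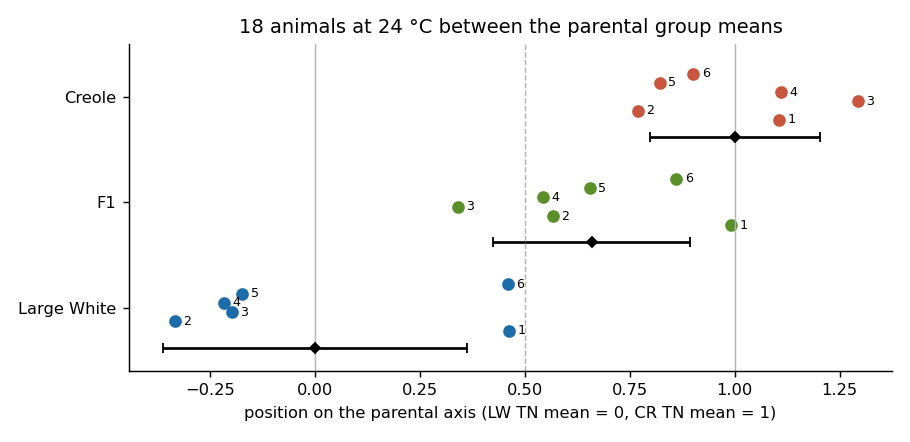
Position of the 18 TN animals between the mean of LW TN (0) and CR TN (1) over 7454 probes whose parental difference was chosen in HS animals, with replicate numbers beside the points and a diamond with a bar for the group mean and SD. The 6 F1 animals spread from 0.340 to 0.990 and the LW replicates 1 and 6 lie at 0.462 and 0.459, beside the F1 animals.

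Dominance classes followed from the calls. Of the 1982 probes, F1 was called from LW and not from CR at 169 (like CR), from CR and not from LW at 27 (like LW), from both at 1 and from neither at 1785 (90.1%). Of the 169, 28 had an interval of the departure that held 0, so that a level midway was not separated, and of the 27, 0 had. A difference that was not called does not show that the levels were equal. Without LW TN replicates 1 and 6 the class like CR held 1558 probes, among 4034 with a called parental difference. These LW animals lay toward CR and F1. Leaving them out therefore raises such counts and cannot show what the class rests on. Values of single genes in these classes follow from the choice and are given as a description, for the largest parental differences, named after they were seen.

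Of the 38 representative probes like CR, 14 were higher and 24 lower in CR than in LW. EPHX2, the soluble epoxide hydrolase that breaks down epoxy fatty acids (chromosome 14, 11217125 to 11293018), had 13.17, 13.70 and 14.38 in LW TN, 14.87, 15.16 and 15.29 in CR TN and 14.27, 14.87 and 15.06 in F1 TN. F1 overlapped CR in part and LW barely, but only 1 of 4 EPHX2 probes gave a called parental difference. HRH1, a histamine receptor, had 5.70, 7.31 and 7.99 in LW against 5.09, 5.17 and 5.44 in CR and 5.00, 5.17 and 7.15 in F1. One F1 animal, replicate 5, lay at the LW level and the other 5 lay with CR near background. PHF2, a histone demethylase, was at 7.18 to 7.45 in LW, 8.28 to 9.20 in CR and 7.18 to 8.46 in F1. Several genes of immune cells belonged to this class with CR and F1 below LW. CD163, the haemoglobin scavenger receptor of macrophages (chromosome 5, 63300200 to 63334497), had 12.63, 13.23 and 13.58 in LW, 11.94, 12.19 and 12.44 in CR and 12.17, 12.40 and 12.92 in F1, and its 7 probes all had a called parental difference. CXCR2, a chemokine receptor of neutrophils, was at 8.43 to 9.11 in LW, 7.63 to 8.12 in CR and 7.71 to 8.28 in F1, so that no CR or F1 animal reached LW. DNASE1L3 and SAMSN1 ran the same way. The log2 sum of 6 of 7 macrophage markers ran from 15.77 to 16.30 in LW, 15.39 to 15.74 in CR and 15.33 to 15.92 in F1, and that of 3 of 4 neutrophil markers from 8.02 to 10.08, 7.54 to 8.83 and 7.73 to 8.58, with every measured marker above background. The part of cell composition in these values was not tested, and in bulk liver fewer cells of a type and less RNA per cell cannot be told apart.

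The class like LW was small, with 9 representative probes, 4 of them higher in CR. C1GALT1, the enzyme that makes the core of mucin-type O-glycans (chromosome 9, 77509342 to 77549545), was the clearest. It lay at 8.07, 8.55 and 9.10 in CR TN, and well above background on 6 of 6 CR arrays and on 0 of 6 in LW and in F1, which were at 4.89 to 5.00 and 4.74 to 5.18. Taking the detection limit of each dim array, CR was at least 10.9-fold above LW and at least 10.8-fold above F1 (adjusted p = 0.000660 and 0.00383), and 1 probe measured it. In HS its fitted departure was 0.02, with an F1 median of 5.39 and a highest F1 animal at 9.44. KDR, the VEGF receptor of endothelial cells, had 9.83, 10.28 and 10.61 in LW, 8.25, 9.33 and 9.62 in CR and 9.53, 10.17 and 10.70 in F1. USF1, a transcription factor of lipid and glucose genes, had 6.69 to 6.93 in LW, 7.23 to 8.60 in CR and 6.52 to 7.64 in F1, with 4 of 5 probes departing below mid-parent at an unadjusted p under 0.05. C1D, GPR83, CINP and KYAT3, which the file also lists under its older symbol CCBL2, were also in this class.

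**Figure D3:**
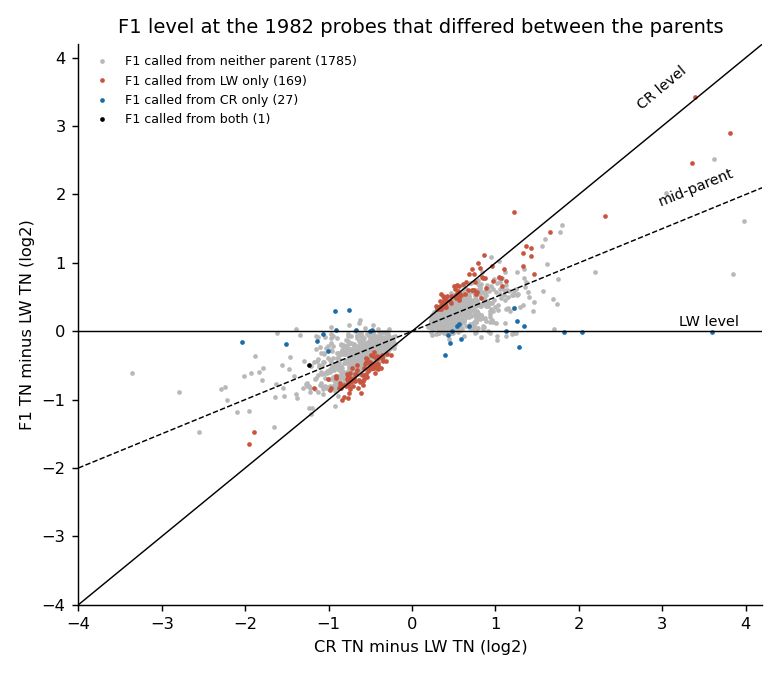
F1 TN minus LW TN against CR TN minus LW TN (log2) at the 1982 probes called between the parents, coloured by whether F1 was called from LW only (169), CR only (27), both (1) or neither (1785). The solid lines are the parental levels and the dashed line is mid-parent. Most points lie between the solid lines, around and somewhat to the CR side of the dashed line.

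The 5 largest parental differences in each direction show the range of F1 positions. NRN1, a neuritin that anchors to the membrane (chromosome 7, 3682568 to 3691328), was 5.81, 6.80 and 8.34 in LW, 9.84, 10.57 and 11.59 in CR and 7.0, 9.94 and 11.04 in F1, so that single F1 animals lay at either parental level. FAM19A3 had F1 animals from 5.24 to 8.56, over the whole range of both parents. MEG3, a maternally expressed imprinted RNA, was 6.10, 6.41 and 6.82 in LW, 7.45, 7.98 and 9.33 in CR and 5.95, 6.60 and 8.47 in F1, with the F1 median in the LW range (departure -0.47, adjusted p = 0.704). PUSL1 had 8.69, 10.36 and 11.44 in F1 between LW at a median of 8.95 and CR at 10.63. Lower in CR were HLA-E, an MHC class I molecule, OAZ3, an antizyme, ISG12(A), an interferon-induced gene, TRIM46 and HRH1. OAZ3 had 8.45, 8.89 and 9.33 in LW, 6.36, 6.65 and 6.86 in CR and 6.66, 8.18 and 9.04 in F1, and its parental difference was called at 3 of 3 probes. ISG12(A) had 16.14, 17.46 and 18.43 in LW, 13.83, 15.34 and 16.45 in CR and 15.79, 16.42 and 17.16 in F1, a departure of 0.10 ± 0.35 (SE), the nearest of the 5 to additive. HLA-E departed by -0.20 in TN and -1.81 in HS (unadjusted p = 0.00098). Apart from HRH1 and C1GALT1, none of these genes had F1 called from either parent. The intervals of their departures were over 1 log2 unit wide, so additive and dominant levels were not separated.

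Lists of liver genes were described by their counts and medians. No gene of any list passed adjustment, and over all 11220 genes the median departure was -0.01, with 3.75% above and 6% below mid-parent at an unadjusted p under 0.05. In the fatty acid oxidation list 5 of 22 genes lay above mid-parent at an unadjusted p under 0.05 and 0 below, beside a list median of 0.03. Among them were PPARGC1A at 0.61, HADHA of mitochondrial beta-oxidation at 0.34, SLC25A20, the carnitine-acylcarnitine carrier, at 0.34, and ETFDH, which feeds electrons from beta-oxidation into the chain, at 0.18. The fatty acid synthesis list had 21 genes measured, 10 of them above 0, and a median of -0.01, with 3 above mid-parent at that p and 0 below. These 3 were the lipins, which act in triglyceride synthesis, LPIN1 at 1.09, LPIN3 at 0.44 and LPIN2 at 0.43, with 8 of 8 LPIN1 probes on that side. In HS these were at 0.34, 0.38 and 0.27. PER1 (0.75) and USP2 (0.65) of the clock list and NR5A2 (0.31) of the liver transcription factors were also above.

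Cytochrome P450 genes had a median of 0.21 over 19 genes, with 15 above 0, 3 above and 2 below at an unadjusted p under 0.05. CYP3A29, a drug-metabolising enzyme, was at 0.50 with 4 probes between 0.50 and 0.62, and CYP2C42 was at -0.97. In HS the list median was 0.05. Complement and coagulation genes had 5 of 32 below and 0 above, C8B at -0.42, C5 at -0.37, SERPINC1 (antithrombin) at -0.18, SERPIND1 at -0.17 and CFB at -0.15, and a median of -0.08 in TN and -0.01 in HS. Antioxidant enzymes had 5 of 28 below, among them GPX1 and GPX4, both at -0.18, with all 6 GPX1 and all 5 GPX4 probes below at an unadjusted p under 0.05, and 2 above, among them PRDX6 at 0.32. Ribosomal proteins had 5 of 68 below, near the 6% of all genes, and 0 above with a median of -0.04, and nuclear subunits of the respiratory chain 4 of 45 below and 1 above with a median of -0.04. APOA2 of high-density lipoprotein was at -0.34 at both probes in TN and -0.27 in HS. MHC class II genes had a median of -0.23 over 10 genes with 2 below (SLA-DOB at -0.38 and CD74 at -0.27) and 0 above, and a median of 0.03 in HS. Growth hormone and IGF genes (18), cholesterol genes (18), proteasome subunits (30), acute phase genes (20) and endoplasmic reticulum stress genes (24) had 0 in either direction.

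Marker lists of liver cells differed in their median departure. It was -0.02 for 6 hepatocyte markers, -0.01 for 4 B and plasma cell markers, -0.05 for 5 cholangiocyte markers, -0.12 for 6 T and NK cell markers, -0.20 for 6 macrophage markers, -0.12 for 4 endothelial markers, -0.51 for 3 neutrophil markers and -0.32 for 6 stellate cell markers. Among the stellate markers COL1A1 (-0.53), COL1A2 (-0.53) and COL3A1 (-0.35) had an unadjusted p under 0.05, and 0 of 6 lay above 0. The log2 sum of this list ran from 13.56 to 14.38 in LW, 13.52 to 14.14 in CR and 13.35 to 14.04 in F1, so the groups overlapped. In HS the list median was -0.02. The pancreas marker CPA1 lay above mid-parent at 0.62, the only one of 4 pancreas markers measured. The part of these cells in the departures of TMSB4X, ADA2 and the MHC genes was not tested.

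Among the mitochondrially encoded genes 8 of 13 representative probes lay above mid-parent at an unadjusted p under 0.05, and these genes were followed over all their probes after this was seen. Of 128 kept probes for the 13 protein genes, 122 (95.3%) departed upward in TN, 77 (60.2%) of them with an unadjusted p under 0.05, where 4.58% of all probes did, and 1 was below at that level. None passed adjustment (smallest adjusted p = 0.119). The median departure was 0.24 and single probes ran from -0.35 to 2.74. In HS animals 110 of the 128 lay above mid-parent, 76 with an unadjusted p under 0.05, with a median of 0.22. The genes encode subunits of complex I (ND1 to ND6 and ND4L), cytochrome b of complex III (CYTB), complex IV (COX1 to COX3) and ATP synthase (ATP6 and ATP8), and all lie on the mitochondrial chromosome of Sscrofa11.1, from ND1 at 3922 to CYTB ending at 16481. They share 1 molecule and overlapping target sequence, so the 128 probes are not independent.

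Within ND1, ND2, COX1 and COX2 the departures of single probes were spread over more than 2 log2 units. The 25 COX1 probes (6511 to 8055) ran from -0.02 to 2.49 around a median of 0.098, the 5 COX2 probes (8203 to 8890) from 0.018 to 2.74, the 20 ND1 probes (3922 to 4876) from -0.29 to 2.25 and the 13 ND2 probes (5087 to 6128) from 0.33 to 2.36. ND4 (11 probes) and ATP6 (9 probes) reached at most 0.32 and 0.26, and the 2 ND6 probes were at 0.65 and -0.35. ND1 had 19 and ND2 12 probes above at an unadjusted p under 0.05, COX1 had 8.

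**Figure D4:**
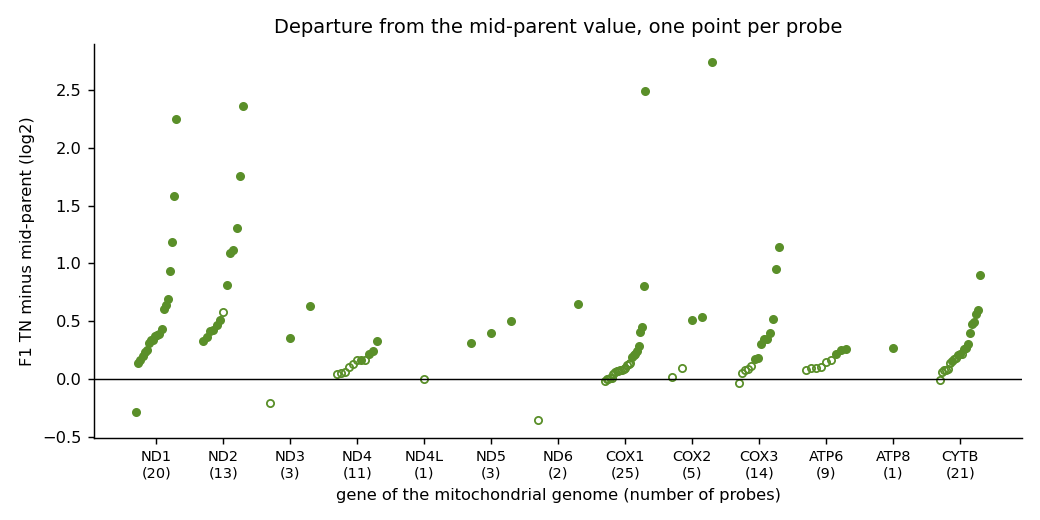
Departure of F1 TN from mid-parent (log2) for each of 128 probes of the 13 mitochondrially encoded protein genes, ordered by size within a gene. Filled points have an unadjusted p under 0.05. Most points lie between 0 and 0.7, and single probes of ND1, ND2, COX1 and COX2 reach over 2.

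The probes with large and small departures are shown with their sequences, 5′ to 3′ as the array file gives them, because pairs of them overlap in the transcript and yet departed by different amounts. The COX2 probes A_72_P751248 and A_72_P746371 start at bases 381 and 393 of the transcript and share 48 positions, of which 47 match. They differ by T45A, counted from the 5′ end of the first probe, which is set in capitals in both.
COX2 A_72_P751248: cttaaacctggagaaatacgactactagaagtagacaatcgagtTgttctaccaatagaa
COX2 A_72_P746371: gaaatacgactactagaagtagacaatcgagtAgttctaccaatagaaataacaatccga
The ND1 probes A_72_P754234 and A_72_P745561 share 44 positions, of which 43 match, and differ by C17G, counted in the first probe and likewise in capitals.
ND1 A_72_P754234: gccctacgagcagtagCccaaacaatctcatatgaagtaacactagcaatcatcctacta
ND1 A_72_P745561: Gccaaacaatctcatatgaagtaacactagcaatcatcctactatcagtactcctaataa
The last 3 are a COX1 probe with almost no departure and the COX1 and ND2 probes with the largest.
COX1 A_72_P736144: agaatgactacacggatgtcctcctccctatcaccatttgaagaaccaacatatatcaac
COX1 A_72_P762153: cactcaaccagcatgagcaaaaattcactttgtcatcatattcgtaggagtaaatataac
ND2 A_72_P719508: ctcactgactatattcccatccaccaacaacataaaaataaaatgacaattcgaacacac

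In the COX2 pair the first probe departed by 0.51 ± 0.11 (SE, adjusted p = 0.119) and the second by 2.74 ± 0.76 (adjusted p = 0.209). In the ND1 pair the values were 0.94 ± 0.25 and 2.25 ± 0.52. COX1 A_72_P736144 lay between 18.23 and 18.42 in all 18 TN animals and departed by -0.02, whereas COX1 A_72_P762153 departed by 2.49 ± 0.59 (adjusted p = 0.132) and ND2 A_72_P719508 by 2.36 ± 0.55 (adjusted p = 0.126). The COX1 probes thus gave almost no departure at one stretch and over 2 log2 units at another. The flat probe lay near the top of the scale, where the brightest mitochondrial probe was at 18.65. Quantile normalization sets such values by rank, so a difference there could be compressed, and its level does not show that the transcript was unchanged. Over the alternative fits, among them processed signal without quantile normalization, its departure ran from -0.039 to 0.046.

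Animal by animal, the probes with large departures had separate levels and not a shift of the group. At COX1 A_72_P762153 the 6 F1 TN animals lay between 16.60 and 16.97, together with LW TN replicates 2 and 3 and CR TN replicate 6 at 16.57 to 17.06, and the other 9 parental animals between 12.45 and 14.08. ND2 A_72_P719508 split the same animals, with F1 at 16.05 to 16.47, these 3 parents at 15.98 to 16.33 and the other 9 at 12.47 to 13.83. ND1 A_72_P745561 did so too, with F1 at 15.48 to 16.19, the 3 at 15.39 to 15.87 and the other 9 at 12.07 to 13.52. In HS the same probes gave the same picture, in animals that were littermates of the TN ones. At COX1 A_72_P762153 the 6 F1 HS animals were at 16.45 to 16.74, LW HS replicates 1 and 2 and CR HS replicate 1 at 16.28 to 16.54 and the other 9 at 12.92 to 14.47. COX2 A_72_P746371 had a further level. CR TN replicates 4 and 5 lay at 9.47 to 9.70 and CR HS replicates 5 and 6 at 9.71 to 10.11, while the lowest LW animal lay at 13.30 and the lowest F1 animal at 15.91. All 12 F1 animals of both temperatures were thus on the upper level, with an SD of 0.123 in F1 TN against 1.61 in LW TN and 1.58 in CR TN at COX1 A_72_P762153. Over all 128 probes, CR TN replicate 6 and LW TN replicates 2 and 3 were the 3 highest parental animals at 44 (34.4%), and CR HS replicate 1 and LW HS replicates 1 and 2 at 38 in HS.

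**Figure D5:**
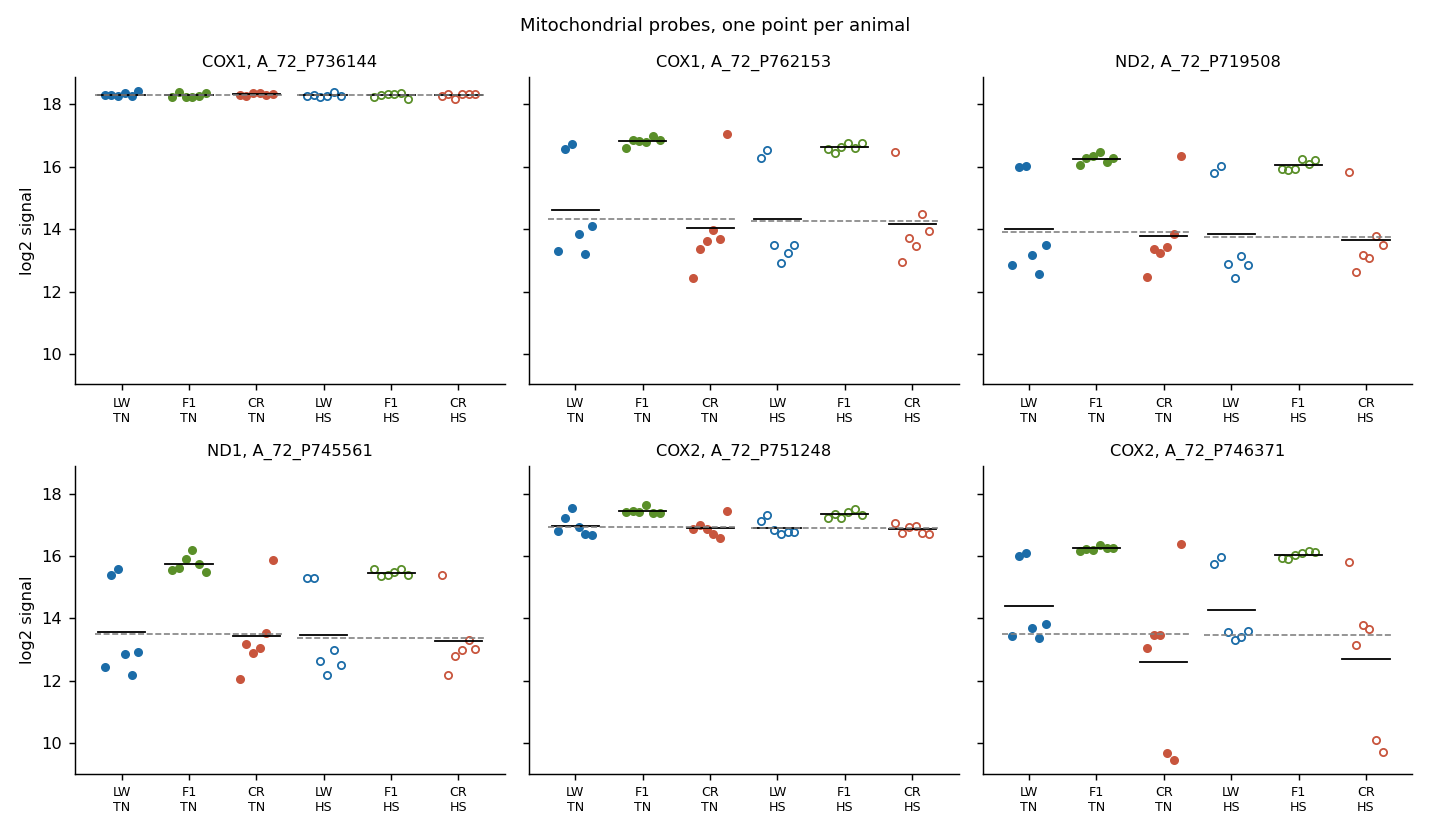
Log2 signal of 6 mitochondrial probes in 36 animals (filled TN, open HS), with group means as black lines and mid-parent values dashed. At COX1 A_72_P762153, ND2 A_72_P719508 and ND1 A_72_P745561 all F1 animals and 3 parental animals per temperature lie on an upper level and the other 9 parental animals about 3 log2 units lower, whereas COX1 A_72_P736144 is level in all animals.

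Single animals decided whether these probes were called. Without LW TN replicate 3, a LW animal on the upper level, 1 mitochondrial probe was called above mid-parent. Without CR TN replicate 6, the CR animal on the upper level, 24 probes were off the mid-parent value, 7 of them mitochondrial (1 of COX1, 1 of COX2, 1 of COX3, 1 of ND1 and 3 of ND2), and 6 lay above both parents, 3 of them mitochondrial. The 77 mitochondrial probes above mid-parent at an unadjusted p under 0.05 became 84 without this animal and 54 without slide 4, and lay between 62 and 92 under all other alternatives. Of the nuclear genes of the respiratory chain 4 of 45 lay below and 1 above, close to the shares over all genes (6% and 3.75%). The part of maternal line in these levels was not tested, since the labels give none.

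Departures at 24 °C recurred in part in HS animals, which were littermates of the TN ones. In HS 10 probes (0.0223%) were off mid-parent, 3 above and 7 below, and 2 of them, A_72_P097651 and A_72_P050011, were also called in TN. Without adjustment 4305 HS probes (9.61%) were off it at a p under 0.05. Of the 4178 such probes in TN, 77.0% had the same sign in HS, where 61.1% of all probes did, and 21.0% also had an unadjusted p under 0.05 in HS, 854 with the same sign and 25 with the opposite. The 8 called probes all had the same sign in HS and 7 had an unadjusted p under 0.05. The difference of the departure between the temperatures, tested in the same fit, passed adjustment at 0 probes (limma, smallest adjusted p = 0.474), with 1663 probes (3.71%) at an unadjusted p under 0.05. HS animals were also killed later, so temperature and day cannot be told apart in this comparison.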

How the data were processed

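Liver RNA of 36 pigs was profiled on 1-colour Agilent arrays. The scanner output of each array (Agilent Feature Extraction 10.10.1.1) was deposited as it left the software, with median signals as linear intensity, not normalized between arrays. They also deposited a table of normalized log2 values for 42051 probes (column medians 7.66, each probe centred near that value), used as an alternative. No columns of other series were present (0).

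Median signals of non-control spots were log2 transformed and quantile normalized over 36 arrays, 107 non-uniform spots were set missing, and 44796 of 60305 probes (74.3%) were kept because 6 or more of the 36 arrays detected them over background. Names came from the files and the RefSeq table of Sscrofa11.1. A model with 6 group means was fitted to all 36 arrays (limma 3.58.1, R 4.3.3, lmFit and eBayes, two-sided, Benjamini-Hochberg over kept probes, threshold 0.05); the study's random effects of pen, day and parents are not in the labels. A called probe is one past that threshold. Intervals are 95%. In simulated data of 44723 probes a departure of 0.5 was recovered for 72% of 200 changed probes, 1 for 98% and 2 for 99.5%. Beside these, 2, 15 and 11 unchanged probes were called, and 0 were called when nothing changed. The simulated noise was independent between animals and probes, without litters or slides, so these shares need not hold for the data. The number of arrays limits the precision.

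The representative probe of a gene is its brightest kept probe. Named are the 12 largest departures each way past the threshold, filled to 12 by smallest p, genes past both parents, the 5 largest parental differences each way, and 6 genes of earlier results. Genes outside this rule were named after their values were seen. The comparison, the gene lists and the markers were chosen with earlier results of these data known. Alternatives were other signals, background correction, the authors' log2 table, filters, slide as a block, array weights, a trended robust spread, 18 arrays alone, 1 value per gene, an arithmetic mid-parent, and leaving out arrays and slides. One gene of the fatty acid oxidation list is not reported here.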

Additional observations from a re-analysis of the deposited data

Results flagged for a closer look

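Of 141 groups of 6 animals examined, 12 held a single value whose gap to the next, divided by the range of the group, was above Dixon's 95% critical value, and chance alone flags about 1 group in 20. Within LW TN these were replicate 1, highest for MPP4 (0.667), and replicate 4, lowest for LSM7 (0.661). Within CR TN, replicate 4 was highest for LPP (0.695) and PPARGC1A (0.701) and lowest for C1ORF151 (0.667), replicate 6 was highest for PLEKHD1 (0.839), replicate 3 lowest for TTF2 (0.705) and replicate 1 highest for MYO9A (0.728). Within F1 TN, replicate 3 was lowest in mean correlation with the other 5 animals (0.627) and highest in PPARGC1A (0.678), replicate 2 lowest in TTF2 (0.788) and replicate 5 highest in HRH1 (0.740). Without F1 TN replicate 3 the departure of PPARGC1A was 0.41 and without replicate 2 that of TTF2 was -0.78.

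DOK2 departed from mid-parent in opposite directions in the 2 sets of animals, with all 6 F1 animals below it in TN and all 6 above it in HS, a difference of departures of -0.98 on the log2 scale. The difference did not pass adjustment over all probes in the limma fit, where the smallest adjusted p of any probe was 0.474, and 3 of 4 kept DOK2 probes shared the direction in TN. HS animals were killed later, so temperature and day cannot be told apart.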

How the results depend on the processing

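No paired analysis was possible because replicate numbers were given in accession order and tie no animals together. Counts are given in the order off mid-parent, CR minus LW, F1 minus LW, F1 minus CR, below both, like LW and like CR, and only those that moved by over 1.5 times. Processed signal gave 0 off mid-parent and 0 below both, normexp 0 off mid-parent, and the values the authors normalized gave 3, 953, 63 and 25 like CR. No filter gave 1 off mid-parent and 111 like CR, probes bright on all arrays 5, and the 18 TN arrays alone 1 and 0 below both. Slide as a fixed block gave 1261, 126, 4 below both and 64 like CR. Array weights gave 14, 3169, 1307, 5 below both and 697 like CR. With 1 value per gene, where fewer features were tested, the counts were 1, 654, 73, 8, 1, 7 and 49. Without LW TN replicates 1 and 6 they were 4034, 2406 and 1558 (CR minus LW, F1 minus LW, like CR), with a median departure toward CR of 0.13. Leaving out F1 TN replicate 3 as well gave 5, 4435, 3302, 19, 1, 16 and 2077, with 0.16.

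Leaving out single animals or slides moved the count off mid-parent between 0 and 24 (17 above at most and 10 below), CR minus LW between 254 (without slide 3) and 2658, F1 minus LW between 20 and 842, F1 minus CR between 4 and 73, above both between 0 and 6, below both between 0 and 4, like LW between 2 and 47, like CR between 12 and 483, mitochondrial probes above between 54 and 84, list genes called between 0 and 1 and the difference between temperatures between 0 and 3. The median departure toward CR ran from -0.0066 (without slide 3, the opposite direction) to 0.10. COX1 A_72_P736144, near 0 in every fit, turned from -0.020 to 0.033 with processed signal, 0.046 in the authors' values, 0.0028 without the 3 animals and 0.00060 without slide 4, and ran from -0.039 to 0.00060 over the fits that left out an animal or slide. Over single genes and probes and the counts above and below mid-parent, 1636 comparisons stayed the same. For a gene or probe this means the same direction and side of the threshold. Of the others, 54 counts moved, 208 calls were lost, 24 were gained and 4 signs reversed. The causes were not tested.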
